A study of Mus musculus with 6 samples.

Results

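The proteins of the large subunit of the cytosolic ribosome were examined in MC38, a mouse colorectal cancer cell line, with and without EPA (eicosapentaenoic acid, an omega-3 fatty acid of fish oil). The members are the rows of the deposited expression table whose target ID is the symbol of a large-subunit protein gene, that is RPL followed by P0, P1 or P2, or by a number with an optional A, L or X. The rule found 37 of 30828 target IDs, and all 37 matched a current mouse gene symbol. Large-subunit genes whose symbols are not among these target IDs were not analysed here. The EPA group was grown for 24 h with 50 µM EPA as the free fatty acid, and the control group is labelled only as control, with no vehicle or time given, and an effect of either cannot be told apart from that of EPA. Both groups were of the same line, in medium with foetal calf serum, and each had 3 samples of total RNA, each read on 1 Illumina mouse bead array.

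The large subunit carries the peptidyl transferase centre, which joins amino acids, and the tunnel through which the new chain leaves. Its proteins are made in step with each other and with ribosomal RNA, and surplus copies are degraded. In mammals the mRNAs of these proteins typically begin with a C followed by a run of pyrimidines, the 5′ terminal oligopyrimidine (TOP) tract, through which mTOR signalling and LARP1 control their translation and stability. They are among the most abundant mRNAs of a growing cell.

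Because the TOP tract is the sequence feature that these genes are known to share, the 30 bases around the annotated transcription start are shown for members lower with EPA, then for the 3 members with the highest log2 fold change, among those with a start in the table used. The sequences are from RefSeq, build GRCm38.p6, with 15 bases on each side of the start, and capitals mark runs of at least 5 consecutive C or T.
Rpl13a, chr7:45128731-45128760, minus strand: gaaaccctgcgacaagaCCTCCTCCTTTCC
Rpl12, chr2:32961697-32961726, plus strand: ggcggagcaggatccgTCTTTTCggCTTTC
Rpl34, chr3:130730384-130730413, minus strand: cgCCTTCCCTgacgtaCTTCCTgtccggcg
Rpl34, a second start, chr3:130730323-130730352, minus strand: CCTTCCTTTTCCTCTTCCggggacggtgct
Rpl26, chr11:68901551-68901580, plus strand: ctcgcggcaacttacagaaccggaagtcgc
Rpl24, chr16:55966260-55966289, plus strand: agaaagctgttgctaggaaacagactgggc
Rpl28, chr7:4792950-4792979, plus strand: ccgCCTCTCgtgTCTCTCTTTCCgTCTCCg
Rpl41, chr10:128549154-128549183, minus strand: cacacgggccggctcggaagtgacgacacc
Rpl4, chr9:64173372-64173401, plus strand: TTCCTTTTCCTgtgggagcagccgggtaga
Long runs stood beside starts of members that were lower (Rpl13a, Rpl34) and of members that were not (Rpl28, Rpl4), and the windows of Rpl26, Rpl24 and Rpl41 held none. A start table matched 29 of the 37 members. Within 25 bases on either side of a start, on the transcribed sense strand only and counting any start of a gene, a run of at least 8 consecutive C or T was found for 16 of these 29 (55.2%) and for 22.3% of all 27025 genes in the table. It was found for 2 of the 5 matched members that were lower with EPA and for 12 of the 20 matched members that were tested and not called. An annotated start can lie several bases from the true one, and no run in a window says only that these letters are not there.

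With EPA the large-subunit genes shifted little, and those that changed fell. Of the 32 members measured above background, 6 fell, 0 rose and 26 did not pass the test (limma on log2 intensity, Benjamini-Hochberg adjusted p below 0.05 over 11657 targets). The 6 were Rpl13a, Rpl26, Rpl30, Rpl12, Rpl34 and Rpl24. Rpl13a fell by 35.1%, and the other 5 fell by 15.8% to 18.1%. Rpl13a, Rpl26, Rpl12, Rpl34 and Rpl24 each had only 1 probe among the deposited probe identifiers, and Rpl30 had 2. Among all members found by the rule, 24 had 1 probe and 13 had several. A call that rests on 1 probe was not checked with a second probe. Over all targets tested, 16.7% were called lower and 16.5% higher, so the 18.8% of members called lower lay near the background share, whereas no member was among the higher calls. At an unadjusted p below 0.05, limma gave 8 members lower and 0 higher, against 22.5% and 21.6% of all targets. An intensity trend in limma's variance prior gave 2 members higher at an unadjusted p below 0.05, and 0 after adjustment.

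The median log2 fold change of the 32 members was -0.11, against -0.00 for all targets tested. Fitted changes were negative for 24 members and positive for 8, with 50.0% negative over all targets. The EPA arrays lay entirely below the control arrays for 11 members and entirely above them for 2 (Rplp1 and Rpl28), against 24.0% and 23.1% of all targets. The fitted changes ran from -0.62 to 0.19, with a median standard error of 0.076. Of the 32, 27 (84.4%) lay within 0.25 of 0 on the log2 scale, against 64.3% of all targets. Rpl24, which was called lower, is among the 27. In the brightest 1% of targets the shares were 87.0% of members and 72.5% of all targets. The spread within a group, as the coefficient of variation of 3 intensities, had a median of 4.34%. Relative to each member's own mean over the 6 arrays, the median member stood at 0.052, 0.059 and 0.050 on the control arrays and at -0.046, -0.054 and -0.033 on the EPA arrays, in log2 units. The groups did not overlap in this median. In total RNA put on arrays in equal amounts, fewer cells making a transcript and less of it per cell cannot be told apart.

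**Figure D1:**
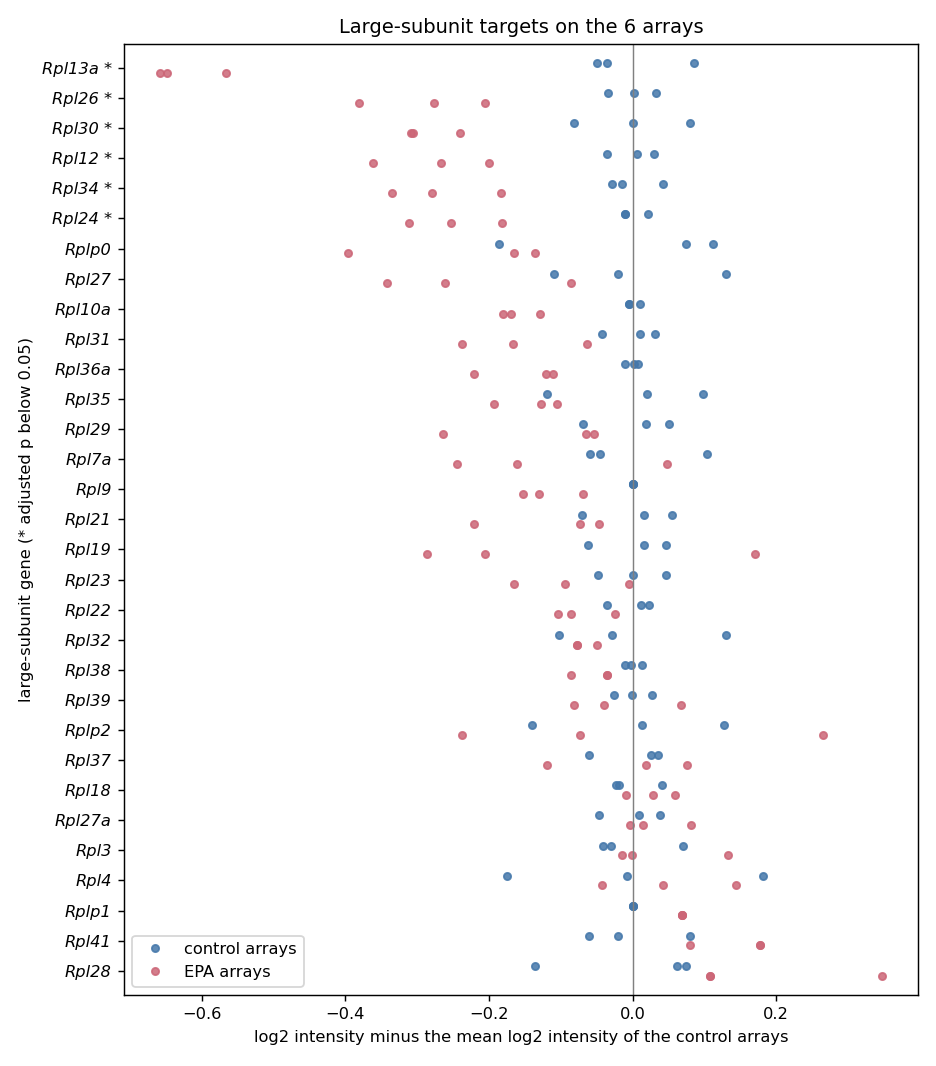
Log2 intensity of the large-subunit targets above background, without 1 that is not reported here, on the 3 control and 3 EPA arrays, relative to the mean of the control arrays (x axis), with genes ordered by log2 fold change on the y axis and each point 1 array. The EPA points of Rpl13a stand apart from its control points by more than those of any other member, and most other members lie within 0.25 of 0.

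The members differed in where they sat on the intensity scale. Among the 32, single values ran from 174 (Rpl21) to 38440 (Rpl9 and Rplp1), and 23 members were in the brightest 1% of all targets by mean log2 intensity (above 5580). Intensities of different probes do not order their transcripts. The other 5 members, Rpl14, Rpl17, Rpl6, Rpl3l and Rpl39l, were not above the background limit of 39.9 on all 3 arrays of either group. Their values lay between 21.2 and 41.9, and no fold change is given for them. Rpl3l and Rpl39l are paralogs known mainly from muscle and from testis, while Rpl6, Rpl14 and Rpl17 encode core subunit proteins, so for these the targets give no reading of the mRNA. Every member that was tested was above background on all arrays of both groups.

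Rpl13a, whose introns carry small nucleolar RNAs and whose protein in human myeloid cells also joins a complex that represses translation, had intensities of 5002, 4554 and 4601 in control cells and 2989, 3007 and 3184 with EPA. All 3 EPA arrays lay below all control arrays, with a wide gap between the groups. The means were 4719 ± 246 (SD, n = 3) and 3060 ± 108, a log2 fold change of -0.62 (SE 0.075, 95% interval -0.79 to -0.46, limma adjusted p = 0.000303). It was the only member to change by at least 1.5-fold, and it was called under all 14 alternative settings of the fit, with an adjusted p of at most 0.0181.

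Rpl26, at the exit of the peptide tunnel, read 13999, 13710 and 13363 in control cells and 10506, 11296 and 11869 with EPA (log2 fold change -0.29, SE 0.0759, limma adjusted p = 0.0170). Rpl24, which forms a bridge to the small subunit and is mutated in the mouse strain Belly spot and tail, read 13781, 13471 and 13471 in control cells and 10934, 11963 and 11394 with EPA (log2 fold change -0.25, SE 0.0717, limma adjusted p = 0.0247). Rpl12, at the base of the stalk where elongation factors dock, read 23208, 24283 and 23890 in control cells and 18509, 19768 and 20717 with EPA (log2 fold change -0.28, SE 0.0748, limma adjusted p = 0.0191). For each of these 3 genes the highest EPA array was below the lowest control array.

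Rpl30, whose product in rat binds the selenocysteine insertion element, read 2515, 2657 and 2376 in control cells and 2034, 2127 and 2030 with EPA (log2 fold change -0.28, SE 0.0749, limma adjusted p = 0.0169). Rpl34 read 19608, 20391 and 19417 in control cells and 15697, 17432 and 16318 with EPA (log2 fold change -0.27, SE 0.0743, limma adjusted p = 0.0217). In both, again, the groups did not overlap. With 1 array left out at a time, the log2 fold changes of these 5 genes stayed between -0.33 and -0.22, but calls were lost. Without control replicate 2 only Rpl13a and Rpl26 stayed called of the 6, and without EPA replicate 3 only Rpl13a, Rpl26 and Rpl12. Rpl24, Rpl26 and Rpl34 were lost without control replicate 1, Rpl12 and Rpl24 without control replicate 3, and Rpl24 and Rpl34 without EPA replicate 1. Testing all 30828 targets with no background filter left Rpl13a as the only call.

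**Figure D2:**
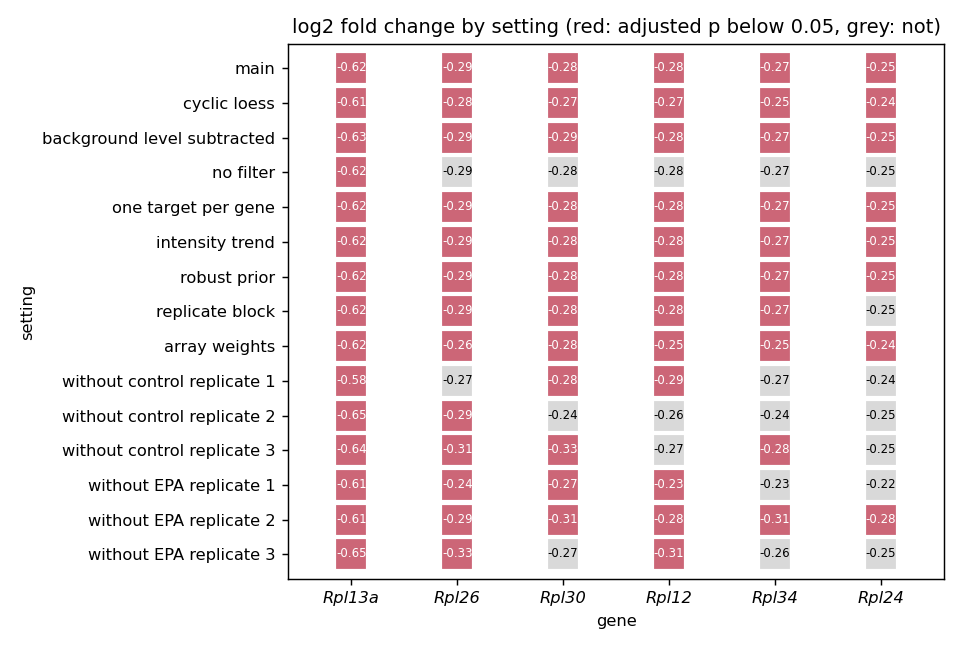
Log2 fold change of each of the 6 called genes (columns) under the main fit and each alternative (rows), with red squares where the adjusted p was below 0.05 and grey where it was not. Rpl13a is red throughout, whereas Rpl24 is grey in 7 of the 14 alternatives while its value stays between -0.28 and -0.22.

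The next largest negative changes did not pass. Rplp0, the base protein of the acidic stalk, read 903, 1111 and 1082 in control cells and 781, 936 and 917 with EPA (log2 fold change -0.23, SE 0.105, limma adjusted p = 0.117). Rpl27 read 26934, 22820 and 24283 in control cells and 23208, 20541 and 19417 with EPA (log2 fold change -0.23, SE 0.0946, limma adjusted p = 0.0895). In both of these genes 1 control array fell within the range of the EPA arrays. Rpl10a, the protein of the mobile L1 stalk, read 21542, 21785 and 21542 against 19768, 19228 and 19085 (log2 fold change -0.16, limma adjusted p = 0.0994), and Rpl31, at the tunnel exit, had a log2 fold change of -0.16 (limma adjusted p = 0.144), with means of 7924 ± 207 and 7118 ± 435. The groups did not overlap for Rpl10a or Rpl31, though neither passed the test. Some alternative settings called genes that the main test did not. Rpl27 was lower with an intensity trend (limma adjusted p = 0.0328), with array weights (0.0316) and without EPA replicate 1 (0.0389). Rpl10a was lower with an intensity trend (limma adjusted p = 0.0216), Rplp0 without control replicate 1 (0.0486) and Rpl19 without EPA replicate 1 (0.0463).

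Among members with positive fitted changes, Rpl28 was highest. It read 6718, 6771 and 5852 in control cells and 8188, 6935 and 6935 with EPA (log2 fold change 0.19, 95% interval -0.03 to 0.40, limma adjusted p = 0.159). All EPA arrays were above all control arrays, with little room between the lowest EPA and the highest control array. Rpl41, the smallest protein of the ribosome, had a log2 fold change of 0.14 (95% interval -0.02 to 0.31, limma adjusted p = 0.169). For 29 of all 32 members the whole interval lay within 30% of no change. The share of all targets within that bound was not counted. A value that misses the threshold does not show that a gene stayed the same.

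The brightest members need separate reading, because the values are quantile-normalised and every array has the same maximum, 38440. Rpl9 held that maximum on all 3 control arrays and read 35124, 36639 and 34582 with EPA. Rplp1, 1 of the paired acidic stalk proteins, held it on all 3 EPA arrays and read 36639 on every control array. By rank of intensity within an array, Rplp1 stood at 2 on every control array and at 1 on every EPA array, while Rpl9 stood at 1 on every control array and at 3, 2 and 4 with EPA. The values of Rplp1 were identical within each group, so that its standard error comes from the spread limma borrows from other targets, and those of Rpl9 varied only among the EPA arrays. Rpl9 had a log2 fold change of -0.12 (limma adjusted p = 0.222) and Rplp1 of 0.07 (limma adjusted p = 0.461). Neither can show a level above the maximum, and whether their beads were saturated is not recorded in the values used. Rpl41 read 34256, 31086 and 31958 against 36639, 34256 and 36639, and Rpl35, at the tunnel exit, read 33268, 35124 and 30214 against 30483, 30035 and 28694 (log2 fold change -0.14, limma adjusted p = 0.205). In the 23 members of the brightest 1%, 4 fell and 0 rose, against 15.2% and 16.2% of the 309 targets at that brightness. In the 9 tested members below it, 2 fell (Rpl13a and Rpl30) and 0 rose.

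**Figure D3:**
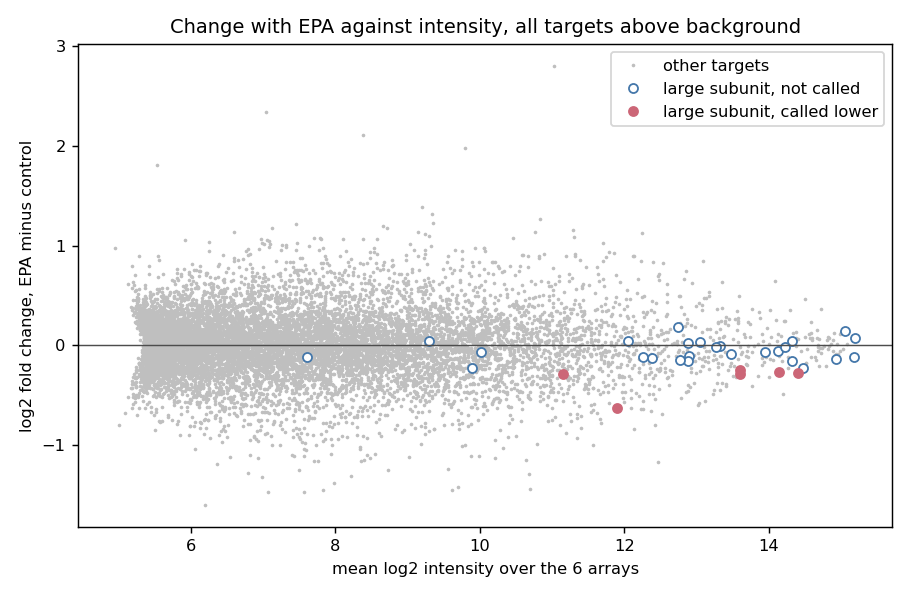
Log2 fold change (EPA minus control, y axis) against mean log2 intensity over the 6 arrays (x axis) for the 11657 targets tested, with large-subunit genes as filled points where called lower and open points where not called. The members gather at the bright end, where 23 of the 32 lie in the brightest 1%, and none but Rpl13a is beyond a log2 change of 0.3.

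By place in the subunit, calls were few in each group. Of the stalk proteins, Rplp0, Rplp1 and Rplp2, none of 3 was called, and Rplp2 had a log2 fold change of -0.02 with a standard error of 0.127. Its EPA arrays read 11963, 8446 and 9462, on both sides of the control values of 10050, 10874 and 9034. Of 8 tested genes on a list meant for proteins at or near the tunnel exit, 2 fell (Rpl26 and Rpl24), against 16.7% of all targets called lower. Rpl24 lies at the subunit interface and was misplaced on this list, so Rpl26 was the only call at the exit. All 8 on the list, Rpl24 included, had negative fitted values, against 75% of the members tested and 50.0% of all targets, with a median of -0.12. The least changed of these was Rpl39, at -0.02. Rpl3, which reaches towards the peptidyl transferase centre, and Rpl4, which lines the tunnel, had log2 fold changes of 0.04 (SE 0.0773) and 0.05 (SE 0.101). Rpl38, needed for the translation of a subset of Hox mRNAs in mouse embryos, had -0.05 (SE 0.0682).

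Paralogs and copies of these genes can share probe sequence with them. Of 3 paralogs outside the rule, Rpl22l1, a paralog of Rpl22, fell from 119 ± 8.73 to 79.8 ± 6.32 (log2 fold change -0.58, SE 0.0881, limma adjusted p = 0.00102), while Rpl22 itself read 1065 ± 23.0 and 1014 ± 29.2 (log2 fold change -0.07, limma adjusted p = 0.465). Rpl7l1 and Rpl36al were not called. The table also holds 13 targets named as pseudogenes of large-subunit genes, of which 11 were above background. Of these 11, 3 fell (27.3%, against 16.7% of all targets) and 0 rose, with 1 higher at an unadjusted limma p below 0.05. The target named Rpl31-ps15 fell (log2 fold change -0.55, SE 0.101, limma adjusted p = 0.00285), and so did Rpl31-ps16 (-0.29, limma adjusted p = 0.0197). Rpl31-ps20 (-0.12) and Rpl31-ps1 (-0.03) were not called, and Rpl31 had -0.16. The other copy that fell was Rplp0-ps1 (-0.29, limma adjusted p = 0.0317), beside -0.23 for Rplp0, which was not called. Targets of the Rpl31 family thus differed in size, and which transcripts each probe reads was not tested.

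Beside the large subunit, 8 of 26 tested small-subunit targets fell (30.8%, against 16.7% of all targets) and 0 rose. Their median log2 fold change was -0.09. Genes on a list for ribosome assembly in the nucleolus and cytoplasm, mostly of the large subunit, fell more often than the background share. The list also holds Noc4l (not called), which serves the small subunit. Nop56 (lower, -0.34) and Nop58 (not called) on it are not particular to the large subunit. Of its 33 tested genes, called 60S assembly factors here, 16 fell (48.5%, against 16.7% of all targets) and 0 rose, with a median of -0.24. Among them were Rpf2 (log2 fold change -0.60), which brings the 5S particle into the precursor, Nip7 (-0.57), Mrto4 (-0.44), which holds the place of the stalk base protein Rplp0, and the nuclear export adaptor Nmd3 (-0.40). Of 10 RNA polymerase I genes, which make the ribosomal RNA, 5 fell (50%, against 16.7% of all targets) and 0 rose (median -0.25). Those that fell included Polr1c (-0.43) and the transcription factor gene Ubtf (-0.31). Of 16 other genes known for TOP tracts, 5 rose (31.25%, against 16.5% of all targets) and 1 fell (median 0.15). Those that rose were Vim (log2 fold change 0.84), Eif4b (0.39), Hnrnpa1 (0.32), Eif3f (0.25) and Eef1g (0.23), and Eef1b2 fell (-0.32). Of 10 tested regulators of ribosomal protein supply, 1 rose (Rptor, 0.23) and 0 fell, against 16.5% and 16.7% of all targets. Myc, Mtor and Larp1 had log2 fold changes of -0.12, -0.14 and -0.01. Of 12 small nucleolar RNA host genes, 4 were tested and all 4 fell (median -1.27), against 16.7% of all targets. Rpl5 and Rpl11 of the 5S particle were not analysed here. At an unadjusted p below 0.05, limma gave 0 small-subunit targets, 0 assembly factors and 0 polymerase genes higher, against 21.6% of all targets. Of the 10 regulators, 2 were lower and 1 higher at that threshold, against 22.5% and 21.6% of all targets.

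**Figure D4:**
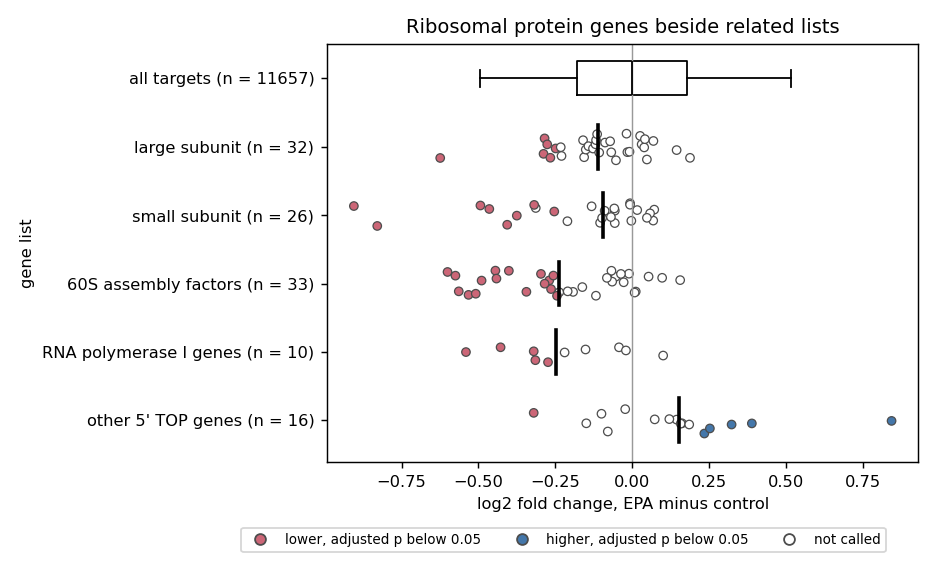
Log2 fold change (EPA minus control, x axis) of each tested gene in the large-subunit set and in related lists (y axis), with the median as a bar and colour for calls. The box for all targets shows the quartiles and the median, with whiskers from the 5th to the 95th percentile. The large-subunit median of -0.11 lies between that of all targets and the -0.24 of the assembly factors.

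The arrays correlated at 0.994 to 0.997 within groups and 0.983 to 0.986 between groups over log2 intensities of the tested targets. Of 9 epithelial and intestinal markers, only Krt8 was above background, and the defining markers Epcam and Cdh1 were not above the background limit on all arrays of either group. Of 9 immune markers, 3 were above background and none was called. Of 8 fibroblast and endothelial markers, 5 were above background and 4 of these rose (80%, against 16.5% of all targets). The log2 fold changes of the 4 were 1.07 (Dcn), 0.87 (Col1a2), 0.83 (Pdgfra) and 0.61 (Pdgfrb), while Col1a1 was not called. The summed intensity of the 8 was 635 to 652 on the control arrays and 1097 to 1155 on the EPA arrays. Pecam1, Cdh5 and Kdr were not above background. The part of these markers in the large-subunit values was not tested. The authors' deposited table of fold changes, with 4423 targets, lists 8 of the members, all with a ratio below 1, from 0.65 for Rpl13a to 0.90 for Rpl10a and Rpl36a. Its 8 members are the 6 called here together with Rpl10a and Rpl36a. All 8 have a raw p-value of at most 0.04 there, from an unnamed test. The share of its 4423 targets with a ratio below 1 was not counted. That table is of the same comparison in this series, so the overlap is not separate evidence.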

How the data were processed

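Biotin-labelled cRNA was made from total RNA with an Illumina-compatible amplification kit, per the labels' protocols. The deposited intensity values of the series table are linear and quantile-normalised: sorted, the 6 arrays differed by at most 0.465%, and each array had a median of 35.2. Probe summarisation and background correction are not given in the sources used here. Exports in the series name GenomeStudio 1.7.0, per the file headers, and their 102 per-array columns, which match no sample label, were not used. The authors' deposited table gives a ratio, its log2 value and a raw p-value from an unnamed test, and its adjusted p was left out. The deposited probe identifiers were used only for counting probes.

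Background was taken as the mode of the intensities (28.4) with the spread of values below it (7.04). Targets above 39.9, the one-sided 0.05 point of that spread, on all 3 arrays of at least 1 group were tested. The fit was limma 3.58.1 in R 4.3.3 on log2 intensity (lmFit, eBayes, two-sided, Benjamini-Hochberg). On simulated data with few targets changed, it did not recover the smallest changes simulated, near the size of most calls here. Many more targets were called in the data, which makes the adjusted threshold less strict, so the simulation cannot judge these calls. Folds are not background-subtracted, which understates changes of dim genes. Values of 1 member are not reported here, though the counts and medians include it. The members and lists were chosen with earlier results of these data known. Named members are those called, the 5 largest changes not called and the 5 brightest. Other members and genes were named, and the bounds of 0.25 (log2), 30% and 1.5-fold set, after values were seen. No label says that samples were separate cultures, so p-values cover the spread between these samples only, which may be technical. The number of arrays limits the precision.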

Additional observations from a re-analysis of the deposited data

How the results depend on the processing

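No alternative gave a large-subunit member called higher. For the 6 called members the sign could hardly change. Their groups did not overlap, so leaving out or weighting arrays or subtracting a background level cannot reverse it. No filter, 1 target per gene, the intensity trend, the robust prior and the replicate block keep the fitted value and change only its test. Cyclic loess could move the value, and all 6 stayed negative there. The number of members lower (6 in the main fit) was 6 with cyclic loess, with the background level subtracted, with 1 target per gene and with a robust prior, 7 with array weights and 8 with an intensity trend. It was 1 without the background filter, where 1167 of 30828 targets were called, and 1 at a threshold of 0.01, where 2140 targets were called instead of 3872. With the members of the brightest 1% left out it was 2 of 9, with a median of -0.12. The median log2 fold change was -0.10 with cyclic loess, -0.10 with array weights and -0.072 with no filter, which adds the 5 dim members. Leaving out 1 array at a time gave 2 to 6 members lower, 0 higher, a median of -0.113 to -0.074 and 2921 to 3584 targets called. The 2 came without control replicate 2, and 3 members were lower without EPA replicate 3. Same-numbered samples of the groups had correlations of deviations of -0.036, -0.184 and 0.102. Samples with unlike numbers had correlations from -0.211 to 0.239. With 3 samples per group these values cannot decide whether same-numbered samples shared a culture or day, which no label states. With the replicate block, 5 members were lower (Rpl24 was lost, adjusted p = 0.0534) and 3487 targets were called. The causes were not tested. Values at the array maximum limit what Rpl9 and Rplp1 can show.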
